A study of Mus musculus with 32 samples.

Results

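The germ-cell transcriptomes of C57BL/6J male mice at 14 days post partum (dpp) were compared with those at 12 dpp, the interval between the first broad change of the juvenile testis and the second. The comparison took in 10 of the 32 samples of the series, 5 mice at each age (mice 1 to 5 at 12 dpp and mice 1, 2, 3, 6 and 7 at 14 dpp), and all 20368 genes of the deposited gene table. Each sample came from both testes of 1 untreated mouse, whose tubules were digested with enzymes, washed to reduce interstitial cells and filtered, and poly(A) RNA was sequenced. The groups set beside them were mice of the same strain at 8 dpp (3 mice), 10, 16 and 18 dpp (5 mice each), and enriched pachytene and diplotene spermatocytes of adult mice of 9 weeks, in 4 samples that each pooled several mice. Levels are given as TPM, the length-corrected share of a gene among all transcripts of a library. This unit keeps no record of sequencing depth, so the depth behind a value is unknown.

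The first wave of spermatogenesis passes through the mouse testis in near synchrony. Spermatogonia divide and enter meiosis, and chromosomes break, pair and synapse during leptonema, zygonema and pachynema. The unsynapsed parts of the X and Y chromosomes are silenced by the start of pachynema. In mid to late pachynema a large set of genes for later spermatocytes, spermatids and sperm is switched on. New waves keep starting behind the first, so a whole-testis sample always holds spermatogonia beside the most advanced cells. In such bulk samples, fewer cells of a type and less RNA per cell cannot be told apart.

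Germ-cell RNA was present in all 10 libraries. The 10 germ-cell identity genes summed to 1049 to 1305 TPM at 12 dpp and 1123 to 1461 TPM at 14 dpp. Sertoli-cell RNA was also present in each of them, since the 16 Sertoli markers summed to 13940 to 15629 TPM at 12 dpp and 11814 to 14241 TPM at 14 dpp. One library stood apart from its age. Mouse 3 at 12 dpp lay at a mean Euclidean distance of 63.1 from the 14 dpp mice and 67.3 from the other 12 dpp mice on log2(TPM + 1) over all genes, and its nearest neighbour was mouse 3 at 14 dpp. The other 9 mice lay closer on average to their own age, although the nearest single mouse to mice 4 and 5 at 12 dpp was mouse 2 at 14 dpp, and the nearest to mouse 3 at 14 dpp was mouse 3 at 12 dpp. Results are therefore given with each mouse left out where a mouse changed them.

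Between 12 and 14 dpp the transcriptome changed little. A gene was called when its adjusted p fell below 0.05 in a limma fit over all 28 juvenile mice. In all, 35 of 20368 genes (0.172%) were called, of which 32 (0.157%) were higher and 3 (0.0147%) lower at 14 dpp. The interval before it, from 10 to 12 dpp, gave 4362 calls (21.4%; 12.0% higher and 9.39% lower), and the interval after it, from 14 to 16 dpp, gave 4890 (24.0%; 12.7% higher and 11.3% lower). The first interval, from 8 to 10 dpp, gave 245 calls (1.2%) with 3 mice at 8 dpp, and the last, from 16 to 18 dpp, gave 11002 (54.0%). Without adjustment, 1962 genes (9.63%) passed p below 0.05 between 12 and 14 dpp, 1534 of them (7.53%) higher and 428 (2.1%) lower. With median-of-ratios scaling of the libraries, 16 genes were called, 13 higher and 3 lower.

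**Figure D1:**
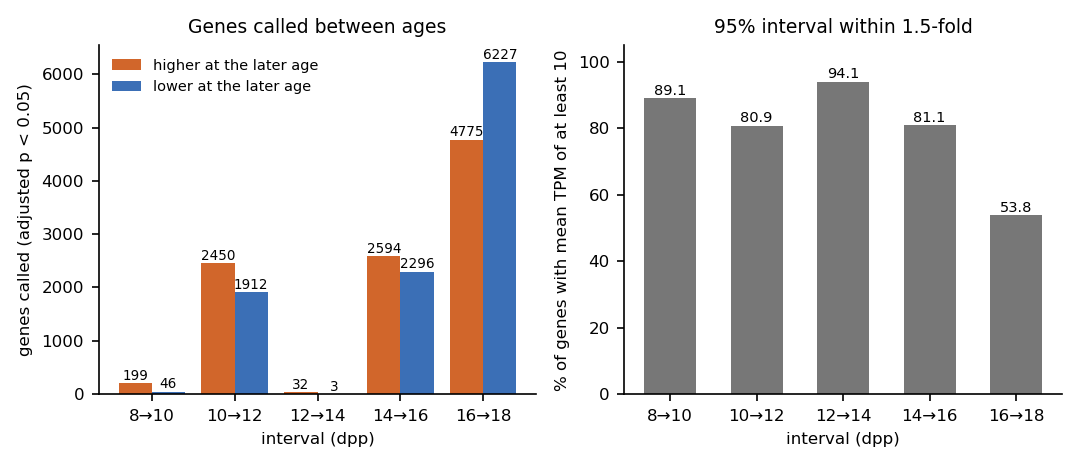
Genes called in each 2-day interval (left, bars: number of genes with adjusted p below 0.05, higher or lower at the later age) and the share of genes averaging 10 TPM or more whose 95% interval of the fold change lay within 1.5-fold (right, in percent). The 12 to 14 dpp bars stand at 32 and 3 genes, against 4362 and 4890 calls in the intervals on both sides, and its share within 1.5-fold is the highest of the 5 at 94.1%. The 8 to 10 dpp share, with 3 mice at 8 dpp and a larger standard error, is 89.1%.

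Changes were small, set against an error that the fit shares between intervals by construction. The equal error therefore does not describe the spread at 12 and 14 dpp. The median standard error was 0.137 on the log2 scale in this interval and equally in the 3 others with 5 mice at both ages, because the fit shares 1 estimate of spread per gene. The median absolute log2 fold change was 0.107 from 12 to 14 dpp, against 0.186 from 10 to 12 dpp and 0.204 from 14 to 16 dpp. Among the 10839 genes averaging 10 TPM or more over the 10 mice, the 95% confidence interval of the fold change lay within 2-fold for 10709 (98.8%) and within 1.5-fold for 10195 (94.1%). From 10 to 12 dpp the corresponding share within 1.5-fold was 80.9%, and from 14 to 16 dpp it was 81.1%. From 8 to 10 dpp it was 89.1%, with 3 mice at 8 dpp and a larger median standard error of 0.159. The median absolute log2 fold change of that interval was 0.12, near that of 12 to 14 dpp.

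The number of calls turned on single mice. Leaving out mouse 3 at 12 dpp raised it to 129, and leaving out mouse 2 at 14 dpp raised it to 90. Without mouse 1, 4 or 5 at 12 dpp it fell to 4, 2 and 14, and without mouse 1, 3, 6 or 7 at 14 dpp to 2, 9, 2 and 3. Only the omission of mouse 2 at 12 dpp left the count near its value, at 25. No called gene changed sign in any of these 10 fits, but single genes kept their call in 2 to 10 of them. When the spread was estimated without the 16 and 18 dpp mice, 233 genes were called, 189 higher and 44 lower, and 32 of the 35 were among them.

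**Figure D2:**
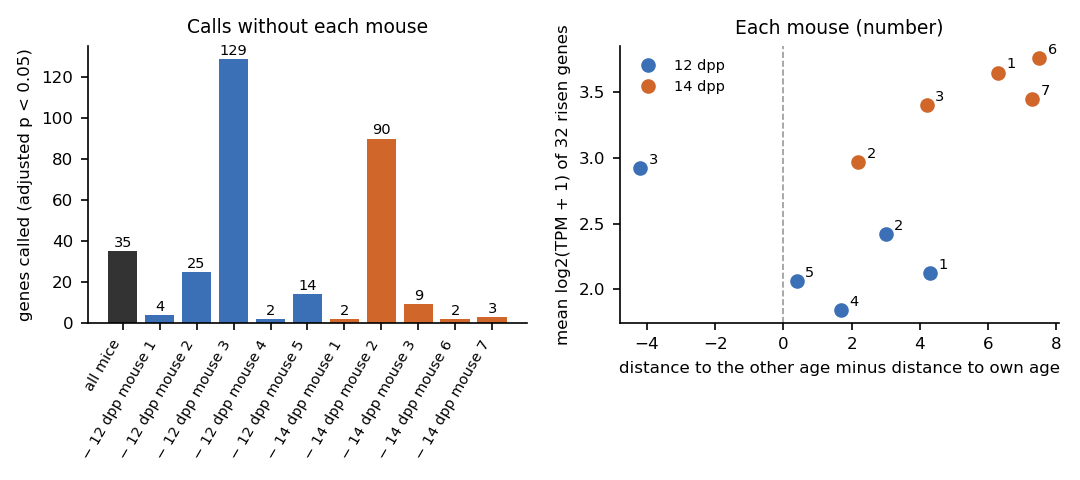
Left, genes called between 12 and 14 dpp (bars: number with adjusted p below 0.05) with all mice and without each mouse in turn, from 2 to 129. Right, for each mouse (numbered), the mean log2(TPM + 1) of the 32 genes called higher against its mean distance to the other age minus that to its own age, where mouse 3 at 12 dpp is the only mouse left of 0.

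As whole profiles the ages differed slightly more than mice of 1 age did. The mean distance between a 12 dpp and a 14 dpp mouse was 68.7 and the mean within an age was 65.4, a difference of 3.26 (one-sided exact permutation test, p = 0.0159, adjusted p = 0.0179 over 5 intervals). The same difference was 15.2 from 10 to 12 dpp and 31.0 from 14 to 16 dpp (exact permutation p = 0.00794 each, the smallest that 252 arrangements allow). From 8 to 10 dpp it was 3.13. Leaving out each mouse kept the 12 to 14 dpp difference between 2.21 and 5.12.

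Genes expressed at 3 TPM or more numbered 14589, 14753, 15284, 15184 and 15158 in the 12 dpp mice, and 15252, 15256, 15078, 15439 and 15743 in the 14 dpp mice. The ranges overlapped. The means were 14994 ± 304 (SD, n = 5) and 15354 ± 252 (SD, n = 5), and their difference of 360 genes did not pass a two-sided exact permutation test (p = 0.103). At 1 TPM or more the difference was 319 genes and did pass (exact permutation p = 0.0159), so this result depended on where expression was set to begin.

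The 32 genes that rose had mostly been at low levels at 10 dpp. Of these, 19 were Ensembl genes, 11 were noncoding genes of the NONCODE catalogue and 2 were piRNA precursors. Their log2 fold changes ran from 0.50 to 2.36 on the log2(TPM + 1) scale, which understates the change of low genes. A mean of under 1 TPM was found at 10 dpp for 25 of the 32, and a mean of more than 20 TPM at 14 dpp for 7. In 17 genes every 14 dpp mouse was above every 12 dpp mouse, and in the other 15 at least 1 mouse overlapped. Over all genes, such separation was found for 318 (1.56%) in the upward and 140 (0.687%) in the downward direction.

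Ldhc encodes the lactate dehydrogenase subunit of male germ cells, which spermatocytes and sperm use in glycolysis. Its gene (ENSMUSG00000030851) lies on chromosome 7 at 46861203-46878142 of GRCm38. It stood at 17.5, 28.4, 43.3, 9.27 and 18.3 TPM in 12 dpp mice 1 to 5 and at 85.1, 45.9, 69.2, 108 and 61.8 TPM in 14 dpp mice 1, 2, 3, 6 and 7. The ages did not overlap, and the closest pair across them was mouse 3 at 12 dpp and mouse 2 at 14 dpp. The log2 fold change was 1.73 (SE 0.34, adjusted p = 0.0272), the largest of any called Ensembl gene.

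Piwil1 encodes MIWI, the PIWI protein that binds the piRNAs made in pachytene spermatocytes. Levels were 9.73, 13.1, 19.8, 7.91 and 9.22 TPM at 12 dpp and 31.7, 16.9, 28.3, 33.1 and 24.7 TPM at 14 dpp. The groups overlapped through the same pair, since mouse 2 at 14 dpp was below mouse 3 at 12 dpp. The log2 fold change was 1.14 (SE 0.213, adjusted p = 0.0201). A second gene, 4930553I04Rik, overlaps Piwil1 on the other strand, and whether reads were counted by strand is not given in the sources used here. The same applies to Adam2, Prok2, Cfap65, Spata4, 1700006J14Rik and M5C1000I18Rik, each of which overlaps an annotated gene on the other strand.

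Pbx4, a homeobox transcription factor of the PBX family, gave the smallest adjusted p of the Ensembl genes. It was at 12.1, 9.90, 12.0, 10.9 and 9.81 TPM at 12 dpp and at 21.8, 15.8, 20.3, 22.4 and 24.7 TPM at 14 dpp, with a log2 fold change of 0.87 (SE 0.146, adjusted p = 0.0134). Here the ages were apart in every mouse, and mouse 3 was not the highest of the 12 dpp mice. The other regulator of transcription among the calls was Rfxap, a subunit of the RFX complex that activates major histocompatibility class II genes. Rfxap rose from 29.2, 39.8, 39.1, 29.0 and 35.3 TPM to 48.4, 51.2, 44.9, 55.4 and 44.2 TPM, the smallest rise called (log2 fold change 0.50, SE 0.102, adjusted p = 0.037). The DNA-binding factor Rfx4 lay just outside the threshold, at 0.30 to 1.21 TPM at 12 dpp and 1.95 to 3.50 TPM at 14 dpp (log2 fold change 0.97, adjusted p = 0.0501).

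A sperm-surface gene, a proteasome gene, a flagellar gene and a phosducin-like gene were also called. Adam2, the beta subunit of the sperm-surface protein fertilin, was at 3.57, 3.85, 5.73, 2.62 and 3.05 TPM at 12 dpp and at 13.2, 7.91, 9.67, 13.1 and 9.01 TPM at 14 dpp, without overlap (log2 fold change 1.29, SE 0.226, adjusted p = 0.0173). Psma8, the testis-specific alpha subunit of the spermatocyte proteasome, was at 25.2, 31.1, 35.4, 21.2 and 23.3 TPM in the earlier mice and 34.3 to 53.2 TPM in the later ones, with overlap through mouse 2 at 14 dpp (log2 fold change 0.77, adjusted p = 0.037). Cfap65, a cilia- and flagella-associated gene, and Pdcl2, a phosducin-like gene of germ cells, had log2 fold changes of 1.16 and 1.29. These 2 genes were at means of 7.00 and 17.9 TPM at 14 dpp.

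Metabolic genes beside Ldhc were Fbp1, the fructose-1,6-bisphosphatase of gluconeogenesis, and Prps1l1, a testis copy of the enzyme that makes phosphoribosyl pyrophosphate. Fbp1 was at 1.17 to 4.28 TPM at 12 dpp and 5.38 to 9.10 TPM at 14 dpp (log2 fold change 1.25). Prps1l1 was listed at 0 in 12 dpp mice 1, 4 and 5 and at 1.12 and 1.96 TPM in mice 2 and 3, and it was at 2.29 to 4.04 TPM at 14 dpp (log2 fold change 1.47). Prps1l1 resembles Prps1 in sequence, and its estimate is uncertain where reads fit both.

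The remaining Ensembl genes called higher were Kndc1, Ptchd3, Prok2, Mroh4, Smim24, Spata4, 1700042G15Rik, 1700006J14Rik and M5C1000I18Rik, with log2 fold changes between 0.91 and 1.42. Prok2, which encodes the secreted signalling protein prokineticin 2, was at 1.24, 2.42, 2.09, 1.58 and 2.46 TPM at 12 dpp and at 5.70, 3.28, 5.21, 6.41 and 5.01 TPM at 14 dpp (adjusted p = 0.0201). Smim24, a small integral membrane protein, was the most abundant of them, with a 12 dpp mean of 18.2 ± 7.52 and a 14 dpp mean of 42.3 ± 7.74 TPM (SD, n = 5 each).

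**Figure D3:**
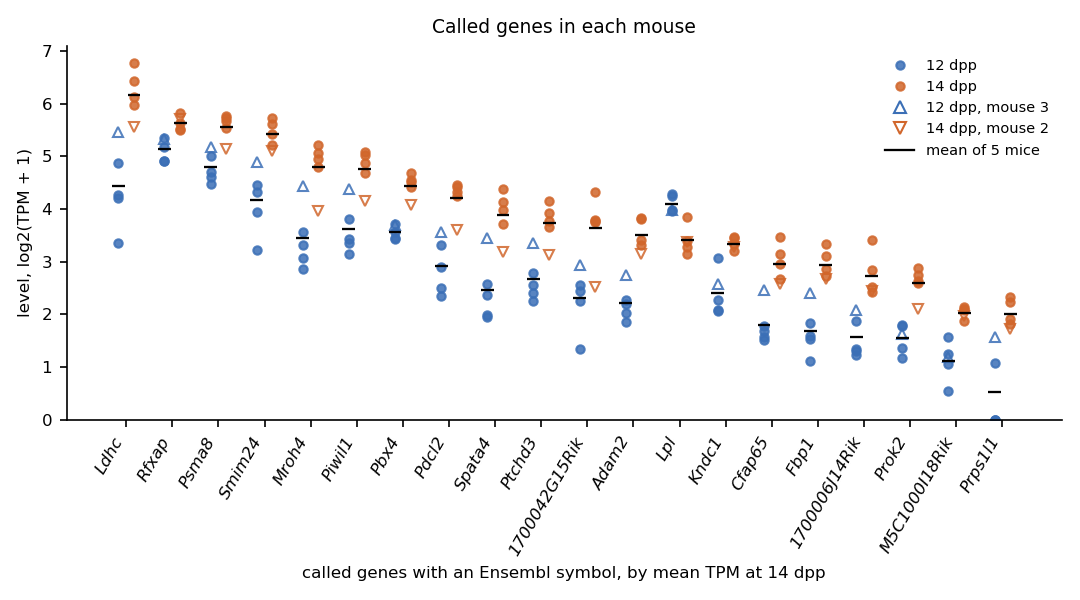
Level of the 20 called Ensembl genes in each mouse (points, log2(TPM + 1)) at 12 dpp (blue) and 14 dpp (orange), with the mean of 5 mice as a bar, ordered by mean TPM at 14 dpp. Open triangles mark mouse 3 at 12 dpp and mouse 2 at 14 dpp, which sit at the near edges of their ages in most of the genes, and Lpl is the only gene with 14 dpp below 12 dpp.

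The promoters of the 4 most abundant risen genes with a RefSeq promoter window are shown. These genes were chosen by their level, and whether they moved together was not tested. RefSeq windows of GRCm38.p6, from 250 bases before to 50 bases after the annotated start, were found for 13 of the 19 risen Ensembl genes. Each is printed 5′ to 3′, in lower case, with matches to 3 short motifs in capitals on either strand. The motifs were AACTG (the core bound by MYB factors, to which the pachytene regulator MYBL1 belongs), GTTGCC (a core of RFX sites) and TGACG (a core of the cAMP response element, CRE). No match overlaps another in these 4 windows. The Piwil1 window lies inside the span GENCODE gives to this gene, whose longest model starts further upstream.
Ldhc (chr7:46861013-46861312, plus strand): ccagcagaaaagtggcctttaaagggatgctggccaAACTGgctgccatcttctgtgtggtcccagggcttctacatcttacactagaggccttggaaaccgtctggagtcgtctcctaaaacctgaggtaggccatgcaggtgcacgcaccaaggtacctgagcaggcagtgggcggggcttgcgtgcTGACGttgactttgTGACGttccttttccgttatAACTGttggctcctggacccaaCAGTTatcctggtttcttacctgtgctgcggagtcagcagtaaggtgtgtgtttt
Smim24 (chr10:81392814-81393113, plus strand): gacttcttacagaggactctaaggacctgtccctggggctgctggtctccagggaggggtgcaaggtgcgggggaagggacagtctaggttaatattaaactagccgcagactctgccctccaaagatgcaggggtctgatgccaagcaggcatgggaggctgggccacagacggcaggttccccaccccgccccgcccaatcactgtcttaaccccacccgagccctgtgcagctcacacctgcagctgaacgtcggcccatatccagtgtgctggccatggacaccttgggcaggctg
Piwil1 (chr5:128735996-128736295, plus strand): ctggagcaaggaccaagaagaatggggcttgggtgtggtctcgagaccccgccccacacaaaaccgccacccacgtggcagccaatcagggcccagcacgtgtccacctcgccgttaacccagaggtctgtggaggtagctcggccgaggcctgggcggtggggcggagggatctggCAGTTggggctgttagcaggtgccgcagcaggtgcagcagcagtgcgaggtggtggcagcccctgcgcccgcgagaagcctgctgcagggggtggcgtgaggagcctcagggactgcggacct
Pbx4 (chr8:69832374-69832673, plus strand): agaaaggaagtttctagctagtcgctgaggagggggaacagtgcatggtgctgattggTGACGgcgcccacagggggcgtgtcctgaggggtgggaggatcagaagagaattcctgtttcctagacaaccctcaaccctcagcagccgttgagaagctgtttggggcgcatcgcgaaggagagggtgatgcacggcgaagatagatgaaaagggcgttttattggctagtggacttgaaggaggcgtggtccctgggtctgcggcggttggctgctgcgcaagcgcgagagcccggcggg

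The MYB core was found in 7 of the 13 windows (53.8%), against 37.5% of the 11128 windows of genes in the gene table and 44.8% of all windows in the RefSeq table. For the RFX core the count was 3 of 13 (23.1%) against 13.2% and 12.5%, and for the CRE core 2 of 13 (15.4%) against 30.7% and 20.8%. Ldhc held 3 MYB cores and 2 CRE cores, Piwil1 1 MYB core and Pbx4 1 CRE core, while none of the motifs was found in the Smim24 window. With 13 windows these shares are a description of the sequences.

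Precursors of piRNAs, the small RNAs that guide PIWI proteins, mostly had positive log2 fold changes. Of 76 precursors measured, 2 were called, 12 were higher in every 14 dpp mouse than in any 12 dpp mouse, and 70 had a positive log2 fold change. Means of these 12 at 14 dpp ran from only 0.104 to 1.7 TPM, and neither called precursor was among them. Every precursor listed reached 3 TPM in at least 1 juvenile mouse of any age. Over all 20368 genes, 0.157% were called higher, 1.56% were higher without overlap and 12547 had a positive log2 fold change. The precursors' median log2 fold change was 0.21, beside 0.04 over all genes, and their summed level was 66.6 to 132 TPM at 12 dpp and 97.9 to 157 TPM at 14 dpp. The called precursor pi-8-qC5-8200 was at 2.67, 2.44, 4.76, 1.40 and 2.85 TPM at 12 dpp and at 7.70, 4.74, 7.22, 7.64 and 7.05 TPM at 14 dpp (log2 fold change 1.08, adjusted p = 0.0201). The other, pi-17-qC-935, was listed at 0 in 12 dpp mice 1 and 5 and reached 18.3 TPM in mouse 3, while the 14 dpp mice lay between 11.6 and 23.2 TPM (log2 fold change 2.36, SE 0.502, adjusted p = 0.0421). Mouse 3 at 12 dpp thus stood inside the range of the later age for this precursor.

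Among the NONCODE genes called higher, NONMMUG033428 had the largest log2 fold change, 1.48 (SE 0.225, adjusted p = 0.00507). It was at 1.03, 1.07, 2.87, 0.55 and 0.80 TPM at 12 dpp and at 5.51, 2.72, 4.89, 6.78 and 5.95 TPM at 14 dpp, and it kept its call whichever mouse was left out. The other 10 had log2 fold changes between 0.86 and 1.32.

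Only 3 genes fell. Lpl encodes lipoprotein lipase, which releases fatty acids from circulating triglycerides. It was at 18.1, 18.6, 14.8, 14.9 and 14.6 TPM at 12 dpp and at 13.4, 9.33, 9.52, 8.65 and 7.88 TPM at 14 dpp, without overlap (log2 fold change -0.69, SE 0.145, adjusted p = 0.0421). Its mean had been 62.8 TPM at 8 dpp and 57.6 TPM at 10 dpp and was 7.69 TPM at 16 dpp. The summed Sertoli markers were lower at 14 dpp as well, and their part in the Lpl result was not tested.

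The other 2 were NONCODE genes whose values switched between listed and 0. NONMMUG045860 was at 7.92, 9.43, 9.10, 12.2 and 10.6 TPM at 12 dpp and listed at 0 in all 5 mice at 14 dpp, so no fold change is given. It was also at 0 in all 3 mice at 8 dpp and in 4 of 5 at 10 dpp, and ranged from 0 to 12.3 TPM at 16 dpp. NONMMUG022249 was at 2.51 to 8.37 TPM at 12 dpp and at 0 in 4 of 5 mice at 14 dpp, with 0.36 TPM in mouse 3. At 8 dpp it ranged from 0 to 8.38 TPM.

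The genes of largest change among the better expressed were not all called. Of the 5 with the largest absolute log2 fold change and a mean of 10 TPM or more at 12 or 14 dpp, pi-17-qC-935, Ldhc, Spata4 and Mroh4 were called and Tom1, an endosomal sorting gene, was not. Tom1 was at 9.15, 9.61, 0, 12.1 and 0 TPM at 12 dpp and 21.1, 25.9, 8.68, 19.4 and 28 TPM at 14 dpp (log2 fold change 2.25, SE 0.967, adjusted p = 0.434). Its mean was 1.84 TPM at 16 dpp and 18.9 TPM at 18 dpp.

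Across the 6 ages the median of the 32 risen genes climbed in each interval after 10 dpp. This median log2 change was 0.015 from 8 to 10 dpp, 1.6 from 10 to 12 dpp, 1.2 from 12 to 14 dpp, 2.2 from 14 to 16 dpp and 1.2 from 16 to 18 dpp. Neighbouring intervals share the mice of the age between them, and the 12 to 14 dpp value is the one by which these genes were called. Mean levels of Ldhc were 2.06, 2.11, 23.4, 74.1, 760 and 2400 TPM from 8 to 18 dpp. Those of Piwil1 were 2.55, 2.40, 11.9, 26.9, 171 and 354 TPM, and those of Pbx4 were 7.45, 4.62, 10.9, 21, 65.4 and 140 TPM. Each of the 3 was below its 16 dpp mean at 14 dpp.

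Rfxap and NONMMUG017850, the latter named after its values were seen, took another course. Rfxap was at means of 36.3, 37.5 and 34.5 TPM at 8, 10 and 12 dpp and at 48.8, 58.1 and 61.9 TPM afterwards, and NONMMUG017850 had means of 0.39, 1.51 and 1.86 TPM at 12, 14 and 16 dpp. In the adult pachytene samples, 26 of the 32 genes were above their 18 dpp mean and 30 were above their 14 dpp mean, over a range of 0.935 TPM (NONMMUG017850) to 6850 TPM (Ldhc). The adult values come from a table normalized separately.

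**Figure D4:**
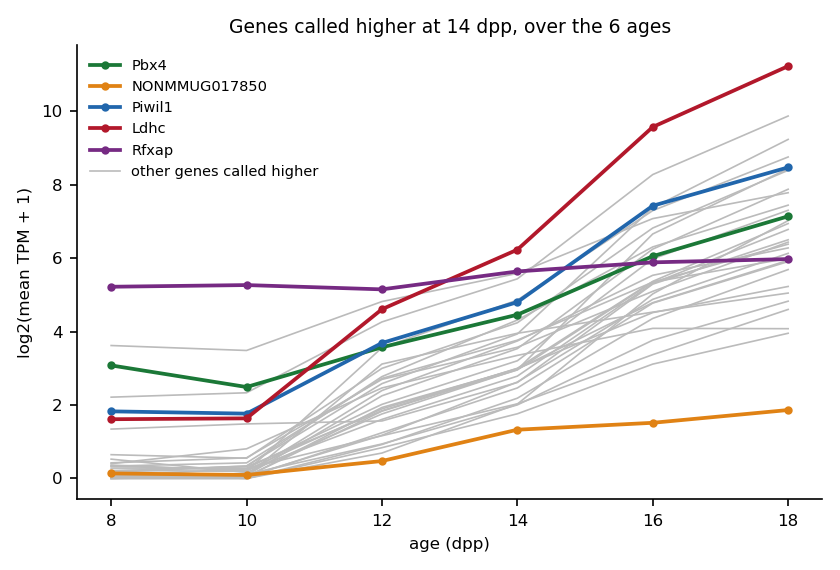
Mean level (log2(mean TPM + 1)) of the 32 genes called higher at 14 dpp, at each of the 6 ages (dpp). Most lines leave the baseline between 10 and 12 dpp and keep climbing to 18 dpp, as Ldhc does from 2.11 to 2400 TPM, while Rfxap starts near its final level.

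The change of pace around the interval was tested gene by gene, as the difference between 2 consecutive changes. From 10 to 12 and 12 to 14 dpp the pace differed for 511 genes (2.51%). In 342 of them the later change was the lower one. The median change of these genes was 0.81 from 10 to 12 dpp and -0.0038 from 12 to 14 dpp, on the log2 scale. In the other 169 the later change was the higher one, with medians of -0.82 and 0.051. Both changes use the 12 dpp mice, and the genes were selected on the difference between the changes. Without adjustment 3050 genes passed, and leaving out single mice gave between 254 and 452 calls. Without mouse 1, 3, 4 or 5 at 12 dpp the count was 324, 317, 325 and 254.

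Examples were picked after the values were seen, among genes of small adjusted p in each direction. Genes of smaller adjusted p were passed over, among them Tpbgl, Farp1 and Serinc5. Meiob, which encodes a single-strand DNA-binding protein of meiotic recombination, was at means of 3.89, 23.3 and 25.9 TPM at 10, 12 and 14 dpp (difference of changes -2.19, adjusted p = 3.43e-06). Il17re, a receptor chain of the interleukin 17 family, was at 2.54, 13.3 and 14.9 TPM (adjusted p = 3.93e-07). Both had stepped up before 12 dpp and moved by 0.13 and 0.16 on the log2 scale afterwards. In the opposite direction, Islr2 was at 36.6, 6.43 and 6.35 TPM and Serpine2, a secreted protease inhibitor, at 125, 39.6 and 30.3 TPM (adjusted p = 5.05e-05 and 3.28e-04).

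Pace changed again after 14 dpp. The change from 14 to 16 dpp differed from that of 12 to 14 dpp for 481 genes (2.36%), in 412 of which the later change was the higher. Their median change was 0.31 from 10 to 12 dpp, 0.29 from 12 to 14 dpp and 2.3 from 14 to 16 dpp. These genes were selected on the difference between the last 2 of these changes, which both use the 14 dpp mice. Pgam2, the muscle and testis form of phosphoglycerate mutase, was at means of 3.03, 4.13 and 104 TPM at 12, 14 and 16 dpp (difference of changes 3.95, adjusted p = 0.00103). It was also picked after the values were seen, and Pebp4, of smaller adjusted p, was passed over. In the remaining 69 genes the later change was the lower, with medians of -0.21, 0.27 and -0.47 over the same intervals. Among them was Atrx, a chromatin remodeller on the X chromosome. Atrx was at means of 59.7, 39.7, 50.6 and 30.7 TPM at 10, 12, 14 and 16 dpp (adjusted p = 0.00258). Leaving out single mice gave between 187 and 520 calls, with 187, 285 and 230 without mouse 2, 3 or 7 at 14 dpp.

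Gene lists by stage and function give a description of the small changes. Both the lists and their members were chosen with earlier results of these data known. Over all 20368 genes, 12547 had a positive and 7635 a negative log2 fold change. Of 27 measured genes of later spermatocytes, 3 (Ldhc, Adam2 and Piwil1) were called higher, beside 0.157% of all genes. In this list 26 had a positive log2 fold change and the median was 0.65, beside 0.04 over all genes. From 10 to 12 dpp 14 of the 27 were called higher (12.0% of all genes were), and from 14 to 16 dpp 24 were (12.7% of all genes). The mean log2(TPM + 1) of the list was 2.44 to 3.14 in the 12 dpp mice and 3.09 to 3.62 in the 14 dpp mice. The overlap between the ages was again that of mouse 3 at 12 dpp with mouse 2 at 14 dpp. Cetn1, a testis centrin, was at 1.07 to 3.05 TPM at 12 dpp and 3.51 to 7.25 TPM at 14 dpp without passing (log2 fold change 1.29, adjusted p = 0.0655). Ybx2, a germ-cell RNA-binding protein, was at 81.5 ± 17.9 and 129 ± 23.9 TPM (SD, n = 5 each; adjusted p = 0.166).

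In the piRNA pathway, 1 of 23 proteins (Piwil1) was called higher, beside 0.157% of all genes, and 21 had a positive log2 fold change, with a median of 0.22. From 10 to 12 dpp 12 of the 23 had been called higher, beside 12.0% of all genes, and from 14 to 16 dpp 17 were, beside 12.7%. Tdrd1, a scaffold of germ granules, was at 35.6 to 48.5 TPM at 12 dpp and 49.2 to 58.9 TPM at 14 dpp (log2 fold change 0.33, adjusted p = 0.164). Mael, which acts in transposon silencing, was at 173 ± 17.7 and 190 ± 20.1 TPM (SD, n = 5 each). Of 18 transcription regulators of pachytene cells none was called, beside 0.172% of all genes. Without adjustment 8 passed, all of them higher (7.53% of all genes), and the median was 0.24. Between 14 and 16 dpp 13 of these 18 were called higher, beside 12.7% of all genes.

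Genes of the earlier meiotic program gave no call, beside 0.172% of all genes, a share at which lists of this size may hold none. None of 16 synaptonemal complex and axis genes, 13 double-strand break genes, 16 strand exchange genes or 15 crossover genes was called between 12 and 14 dpp, with medians of 0.17, 0.08, 0.06 and 0.13. From 10 to 12 dpp, 11, 6, 10 and 7 of them had been called higher and none lower, beside 12.0% and 9.39% of all genes. Without adjustment 3, 1, 3 and 3 were higher from 12 to 14 dpp and none lower, beside 7.53% and 2.1% of all genes. Sycp3, the axis protein by which spermatocytes are staged, was at 249, 286, 325, 250 and 229 TPM at 12 dpp and at 326, 266, 341, 368 and 327 TPM at 14 dpp (log2 fold change 0.28, 95% interval 0.06 to 0.51, adjusted p = 0.372). Spo11, whose product makes the double-strand breaks, was at 11 to 15.2 and 13 to 18.4 TPM (log2 fold change 0.32, adjusted p = 0.516). Cntd1, a cyclin-like crossover factor, was at 21.9 to 34.7 and 33.9 to 46.3 TPM (log2 fold change 0.59, adjusted p = 0.121).

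Spermatogonial genes gave no call either, beside 0.172% of all genes. None of 18 self-renewal genes, 16 differentiation genes or 17 genes of the retinoic acid response and meiotic entry was called, and the medians were 0.02, 0.01 and -0.02. Stra8, the retinoic acid target that starts meiosis, was at 154 to 179 TPM at 12 dpp and 132 to 155 TPM at 14 dpp (log2 fold change -0.16, 95% interval -0.37 to 0.05, adjusted p = 0.635). Ccnd2, the D-type cyclin of differentiating spermatogonia, was at 50.3 ± 3.85 and 41.5 ± 1.94 TPM (SD, n = 5 each; adjusted p = 0.322). H2afx, whose phosphorylated protein marks breaks and the sex body, was at 79.4 to 89.3 and 86.9 to 108 TPM (adjusted p = 0.685). The gene of the remaining stained protein, Hist1h1t, was not analysed here.

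Cell-cycle lists gave no call, beside 0.172% of all genes. Of 29 genes of the G2 and M phases, 28 had a positive log2 fold change, 9 passed without adjustment, all higher (7.53% of all genes), and the median was 0.15. Cdc20, an activator of the anaphase-promoting complex, was at 92.5 ± 8.16 and 116 ± 17.2 TPM (SD, n = 5 each; log2 fold change 0.32, adjusted p = 0.164). For 36 DNA replication genes the median was 0.05, and Pcna, the sliding clamp, was at 180 ± 6.78 and 189 ± 6.62 TPM. Among 17 heat shock genes the largest log2 fold change was that of Hspa2, the spermatocyte chaperone, at 97.6 ± 19.9 and 141 ± 22.4 TPM (adjusted p = 0.164). Immediate early genes, which respond to tissue dissociation, had a median of -0.10 over 24 genes, with Fos at 1090 ± 120 and 1030 ± 204 TPM.

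**Figure D5:**
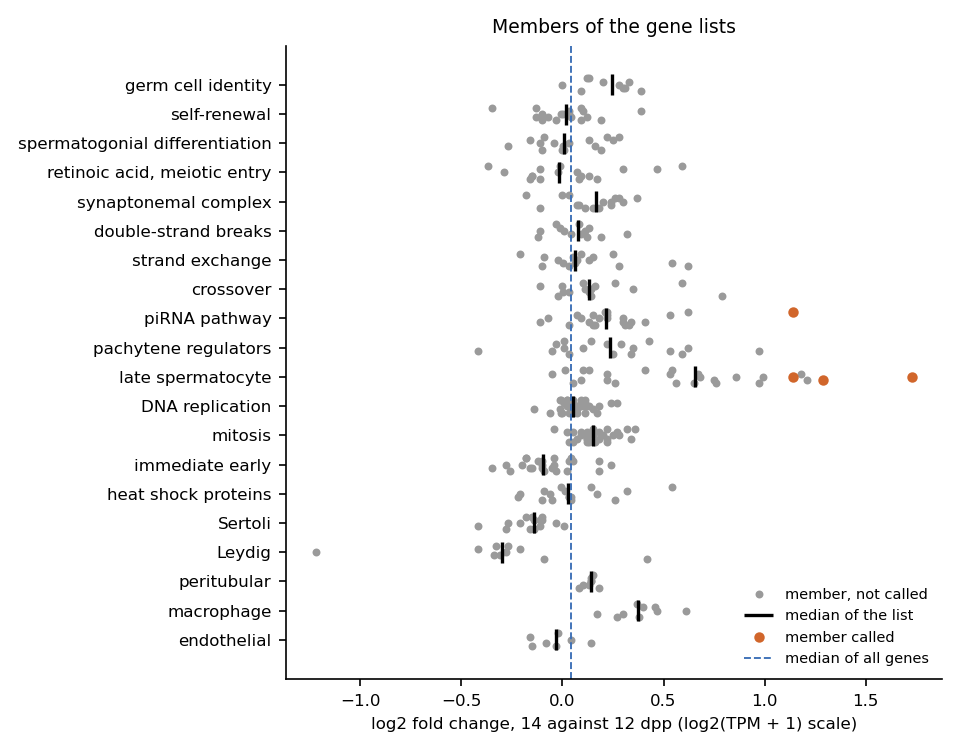
Log2 fold change of 14 against 12 dpp (log2(TPM + 1) scale) for each measured member of 20 gene lists, 1 point per gene, with the list median as a black bar and the median of all genes as a dashed line. Only later spermatocyte genes and Piwil1 of the piRNA pathway include called members (orange), and the late spermatocyte median of 0.65 lies farthest to the right. The lists were chosen with earlier results of these data known.

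None of the markers of other testis cells was called, beside 0.172% of all genes. Of 16 Sertoli markers, 15 had a negative log2 fold change, 4 passed without adjustment, all lower (2.1% of all genes), and the median was -0.14. Amh, the Sertoli hormone that recedes as these cells mature, was at 172 to 247 TPM at 12 dpp and 125 to 179 TPM at 14 dpp (log2 fold change -0.42, adjusted p = 0.248). Of 9 macrophage markers 9 were positive, with 5 passing without adjustment as higher (7.53% of all genes) and a summed level of 83.9 to 153 TPM at 12 dpp and 104 to 196 TPM at 14 dpp. The Leydig markers summed to 415 to 673 and 336 to 649 TPM. Among them Cyp17a1, an enzyme of steroid synthesis, varied from 2.8 to 68.0 TPM within the 14 dpp mice alone. Peritubular markers had a median of 0.14 and endothelial markers one of -0.03, and the 2 spermatid markers measured summed to at most 1.37 TPM in any mouse. The part of these markers in the germ-cell values was not tested.

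Genes of the X chromosome gave no call in this interval, beside 0.172% of all genes. Of 652 genes on it, 23 passed without adjustment as higher and 17 as lower (7.53% and 2.1% of all genes), and their median log2 fold change was -0.004, beside 0.035 for 14210 autosomal genes. The median X-linked level lay below the autosomal median by 0.26 to 0.36 log2 units in the 12 dpp mice and by 0.34 to 0.39 in the 14 dpp mice, ranges that overlapped. At 16 dpp it lay 0.54 to 0.72 below and at 18 dpp 0.74 to 1.19 below. None of the called Ensembl genes was on the X chromosome.

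Index sequences in the sample labels raise the question of a change of library pool. The 13 indices of the 8, 10 and 12 dpp libraries were all used again among the 15 libraries of 14, 16 and 18 dpp, and none was shared between 12 and 14 dpp. If the earlier and later ages were pooled separately, the change of pool would coincide with this interval, and pool and age cannot be told apart in it. A step that separated all 13 earlier from all 15 later mice was found for 245 genes. In 4 of them the step was larger than the changes within the earlier and within the later ages. For the same division placed after 10 dpp the numbers were 1925 and 522, and placed after 14 dpp they were 2444 and 738. The changes within include those of age, so these counts cannot decide on a pool change, which was not tested. The 4 genes were Ccar1, Tmem167, NONMMUG004264 and NONMMUG017850, named after their values were seen. Ccar1, a regulator of cell cycle and apoptosis, was at 38.3 to 54.2 TPM at 12 dpp and 55.6 to 61.1 TPM at 14 dpp (log2 fold change 0.30, adjusted p = 0.0655).

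The numbering of the mice gave a further way to divide the samples. Within mice 1 to 3 of each age 1 gene was called between 12 and 14 dpp, and within the later-numbered mice (4 and 5 against 6 and 7) 126 were. The difference between these sets was called for no gene by limma, with 1539 passing without adjustment. All 32 genes called higher had a positive log2 fold change within both sets, for Ldhc 1.19 and 2.56 and for Rfxap 0.42 and 0.61. The mean log2(TPM + 1) of the 32 genes was 2.12, 2.42, 2.92, 1.84 and 2.06 in 12 dpp mice 1 to 5 and 3.65, 2.97, 3.40, 3.76 and 3.45 in 14 dpp mice 1, 2, 3, 6 and 7. Mouse 3 was the highest of the 12 dpp mice for 26 of the 32 genes, and mouse 2 the lowest of the 14 dpp mice for 27. As the genes were called on these same mice, both their shared sign in the 2 sets and this order are a description.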

How the data were processed

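Poly(A) RNA of 28 juvenile mice and 4 adult pools was sequenced. Per the study's methods, the authors filtered and trimmed reads by base quality and merged 2 lanes. Alignment was by Bowtie 1.0.0 to an mm10 transcriptome joined from Ensembl release 75, NONCODE v4 and piRNA precursors, and RSEM 1.2.8 gave the TPM. Strand settings are not given in the sources used here. The deposited gene values, which the authors named TPM, carry the unit of a score: their column sums were too high for TPM, and the natural log of (value + 1) gave log2(TPM + 1), since 20288 of 20368 genes then came within 0.2 TPM of the sum of their transcripts in the deposited transcript TPM table. Every gene listed reaches 3 TPM in 1 mouse or more. Its column of substages assigned by the authors was not used.

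Values were fitted with limma 3.58.1 in R 4.3.3 (6 ages, prior variance trend, pseudocount 1 TPM, Benjamini-Hochberg adjustment), with exact permutation tests in Python 3.11.15 (scipy 1.17.1) for single values. The design had taken the gene values to be TPM as deposited, and the conversion was added once they were read. Depth is not recoverable from TPM, so precision rests on the spread between mice, each a separate animal. Lists described without a test were chosen, like the members, with earlier results of these data known. Named genes were all called Ensembl genes, the 2 largest NONCODE or piRNA precursor changes in each direction, 2 of largest change and 2 of highest level in each list, the stained proteins, and the 5 largest changes at 10 TPM or more. Scripts were tested on simulated data. Positions are GENCODE on GRCm38, the build of the files. Alternatives covered the pseudocount, filter, scaling, variance model, samples, mouse sets and each mouse left out.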

Additional observations from a re-analysis of the deposited data

Results flagged for a closer look

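The highest or lowest of the 5 mice of an age was tested against the others by Dixon's criterion (0.71 for 5 values) in 130 sets of values, and 9 were set apart, where chance gives about 1 in 20. Of these, 4 were mouse 3 at 12 dpp. It held 4.5 TPM of Cfap65 against 1.87 to 2.42 in its age-mates, 2.87 TPM of NONMMUG033428 against 0.55 to 1.07, 7.75 TPM of NONMMUG035738 against 1.44 to 2.15, and 10.0 TPM of Spata4 against 2.86 to 4.94. Mouse 2 at 14 dpp held 4.74 TPM of pi-8-qC5-8200 against 7.05 to 7.70 in the others. For NONMMUG022249 mouse 3 at 14 dpp was at 0.36 TPM and the others at 0.

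The last 3 were list means on the log2(TPM + 1) scale. Genes of the mitochondrial genome averaged 12.3 in mouse 5 at 12 dpp against 12.6 to 12.7 in the others. Cytosolic ribosomal proteins averaged 8.99 in mouse 1 at 12 dpp against 8.84 to 8.89. NONCODE genes averaged 2.29 in mouse 7 at 14 dpp against 2.17 to 2.21. Nothing was tested about these mice beyond their removal in turn.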

How the results depend on the processing

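The count of 35 genes became 6 with the 12 and 14 dpp mice alone, 233 with the 8 to 14 dpp mice (an alternative chosen after seeing the data), 167 with array weights, 16 with median-of-ratios factors, 12 with quantile normalization, 9 with a pseudocount of 3 TPM, 7 without a filter on low values (60085 genes tested) and 1 with mice 1 to 3. It ran from 2 to 129 with single mice left out. The cause of these differences was not tested. Mouse numbers did not pair the samples (correlations of deviations between ages -0.0018, -0.037 and 0.044 for mice 1 to 3), and with a replicate block 0 genes were called by limma (1072 without adjustment). The pace calls around 12 dpp were 852 with the 8 to 14 dpp mice, 866 with array weights, 268 without a filter, 261 with the replicate block and 254 to 452 with a mouse left out, beside 511. Those around 14 dpp were 1134, 251 and 212 with array weights, without a filter and with a pseudocount of 0.1 TPM, and 187 to 520 with a mouse left out, beside 481. The difference in expressed genes, 360, was 319 at 1 TPM, 1554 for any TPM above 0 and 286.4 with median-of-ratios factors, each then passing (exact permutation p = 0.0159, 0.0238 and 0.0159), and 258.9 to 432.6 with a mouse left out. The distance of 3.26 was 2.52 with mice 1 to 3 (exact permutation p = 0.10, the smallest possible) and 2.21 to 5.12 with a mouse left out. Over 119 named genes and 25 alternatives no gene reversed; called genes kept their call in 419 fits and lost it in 455.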

Other observations

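Transcript use was compared between the ages for 23923 transcripts of 7137 genes. By limma 2 transcripts were called, with 1387 passing without adjustment, and both belonged to Arsg, an arylsulfatase gene. Transcript ENSMUST00000106697 made up a mean of 90.8% of Arsg at 12 dpp and 0% at 14 dpp, and ENSMUST00000020928 0% and 98.8%, while the gene itself was at means of 5.22 and 4.83 TPM. ENSMUST00000020928 exceeded 1 TPM in 1 of 3 mice at 8 dpp, 4 of 5 at 10 dpp, 0 of 5 at 12 dpp, 5 of 5 at 14 dpp, 1 of 5 at 16 dpp and 2 of 5 at 18 dpp, so it also differed between mice of 1 age.

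Among 82 cytosolic ribosomal protein genes none was called (0.172% of all genes were), 68 had a negative log2 fold change and the median was -0.07. From 10 to 12 dpp 35 of them were called lower and 2 higher, beside 9.39% and 12.0% of all genes. Of 12 genes of the mitochondrial genome, 5 were positive and the median was -0.001. Of 5 measured red blood cell genes 5 were positive, with a median of 0.21. For 29 replication-dependent histone genes, whose RNAs mostly lack poly(A) tails, the median was -0.08 and the range -0.89 (Hist1h4m) to 1.2 (Hist1h2bk). Over the NONCODE genes the median was 0.08, beside 0.04 over all genes. Of them 11 were called higher and 2 lower, beside 0.157% and 0.0147% of all genes. The shares of NONCODE genes passing without adjustment were 8.01% higher and 1.92% lower, close to the 7.53% and 2.1% of all genes.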
